A study of Mus musculus with 16 samples.

Results

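Mucosal mast cells (MMC) were compared with the cultured mast cells they were derived from, bone marrow-derived mast cells (BMMC), on one-colour miRNA arrays. The comparison uses 8 of the 16 arrays of the study: the 4 titled as MMC and the 4 titled as BMMC. BMMC are Balb/c mouse bone marrow cells grown for 4 weeks with IL-3 at 5 ng/ml and stem cell factor (SCF) at 20 ng/ml. MMC are such BMMC kept for 5 further days in medium that also contained IL-9 and TGF-beta, whose doses the labels do not give. No genetic change is named for any group. No culture kept for those 5 days without IL-9 and TGF-beta is described, so the cytokines and the longer culture cannot be told apart. The series calls the 4 arrays of a group biological replicates, without saying whether they came from separate animals or separate cultures, so the p-values reflect only how these samples vary, which may in part be technical. The other 8 arrays hold c-kit-positive progenitors taken on day 6 of culture and BMMC sensitised with IgE and exposed to antigen for 2 hours (IgE_BMMC). They enter the fit and are cited where they place an MMC value.

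Mast cells of the mucosal type sit in the epithelium and lamina propria of the gut and airways, and in the mouse they expand during worm infections under the control of T cell cytokines. IL-9 signals through JAK kinases and STAT transcription factors, and TGF-beta through SMAD proteins, and the pair is used in culture to raise the mucosal proteases of BMMC. A miRNA is cut from a hairpin as a short duplex, and the strand that is kept guides silencing of messages that match its seed, bases 2 to 8. The strand written with a star is the one that was taken for the passenger of the duplex.

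The array measured 567 mouse miRNAs, and 206 of them were tested because their probes were clearly above background on 3 or more BMMC or 3 or more MMC arrays. Levels are background-subtracted probe signals divided by an array's scale factor, on the log2 scale, so 1 unit is a 2-fold difference and a difference is relative to the 205 probes that set the scale. With limma at a Benjamini-Hochberg adjusted p under 0.05, 35 miRNAs rose in MMC (17% of the 206) and 8 fell (3.88%), 20.9% in all. The rises were led by miR-452 and miR-21, followed by miR-710 and miR-1224, each more than 2-fold, and the falls by miR-193b, at 2.70-fold lower in MMC. The called changes ran from 1.16-fold to 2.70-fold, with a median rise of 0.68 and a median fall of -0.48 log2 units. All 43 had the same sign on both slides, each of which held 2 arrays of either group. These are the arrays that made the calls, so this is no independent support. For the 42 whose groups did not overlap, the sign could not differ between slides. The share of rises among the calls, 81.4% here, fell to 36.4% when the scale came from the 75th percentile of all probes or from quantile normalization, and was 96.7% with normexp background correction and 66.7% in the authors' value table. The normexp setting adds an offset of 50 to every spot before the arrays are scaled. Leaving out progenitor replicate 4, which enters the shared estimate of spread, the scale and the floor but neither group mean, gave 38 rises and 26 falls.

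The mature sequences of the members that lead the results are shown with the seed in capitals, so that shared and different seeds can be read off. They are RefSeq sequences on build GRCm38.p6, where 175 of the 206 tested miRNAs and 37 of the 43 called ones were matched.
miR-21: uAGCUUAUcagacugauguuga
miR-452: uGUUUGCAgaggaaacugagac
miR-28: aAGGAGCUcacagucuauugag
miR-142-3p: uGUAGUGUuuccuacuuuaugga
miR-24: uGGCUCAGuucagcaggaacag
miR-24-1*: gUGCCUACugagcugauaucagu
miR-24-2*: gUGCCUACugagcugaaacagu
miR-1224: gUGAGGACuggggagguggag
miR-710: cCAAGUCUuggggagaguugag
miR-193b: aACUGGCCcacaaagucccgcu
miR-193: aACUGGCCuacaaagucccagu
miR-365: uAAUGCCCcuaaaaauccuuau
miR-223: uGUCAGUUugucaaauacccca
miR-212: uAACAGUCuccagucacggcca
miR-132: uAACAGUCuacagccauggucg
miR-16: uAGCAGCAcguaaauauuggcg
The 37 called miRNAs with a sequence carry 36 different seeds. The only seed that 2 called miRNAs share is UGCCUAC, of the star arms miR-24-1* and miR-24-2*. Among the pairs above, miR-193b and miR-193 share ACUGGCC and differ at 3 of their 22 bases, and miR-212 and miR-132 share AACAGUC and differ at 5 of 22. How far a probe for one member of such a pair also takes up the other was not tested.

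**Figure D1:**
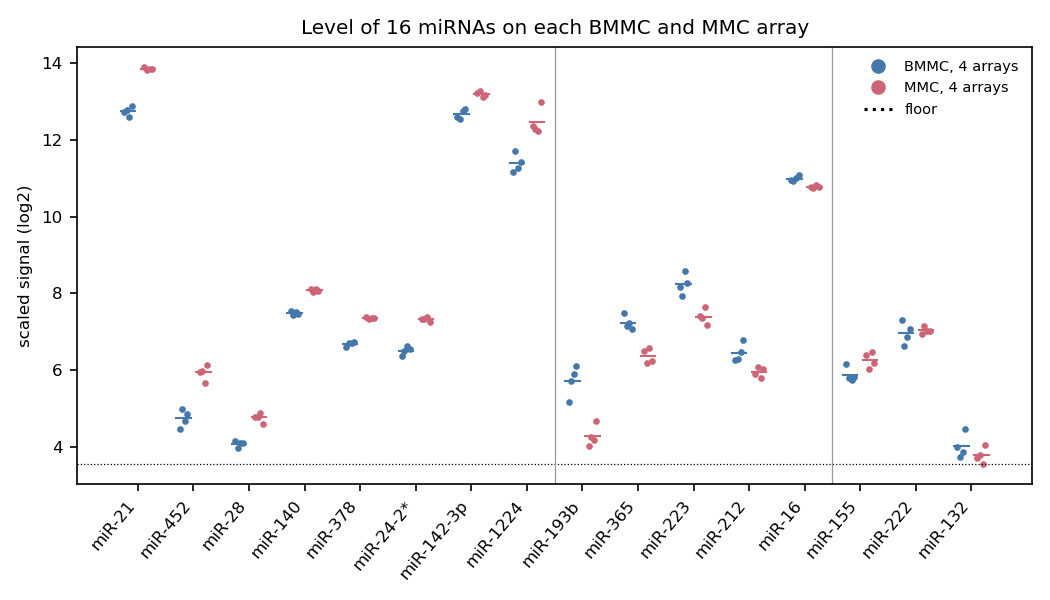
Scaled signal (log2) of 16 miRNAs on each BMMC array (blue) and each MMC array (red). Points are single arrays, bars are means of 4 arrays, the dotted line is the floor, and vertical lines part called rises, called falls and 3 miRNAs that were not called. The groups do not overlap for miR-21 or miR-193b and overlap for miR-222 and miR-132.

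MiR-21 showed the smallest adjusted p among the rises. It is cut from a hairpin within the span of the Vmp1 gene (chr11:86584120-86584141, minus strand), is known to repress messages such as Pdcd4, and is induced through STAT3 and TGF-beta signalling in other cells. The 4 BMMC arrays read 12.72, 12.78, 12.59 and 12.88 log2 units and the 4 MMC arrays 13.90, 13.83, 13.83 and 13.85. Every MMC array stood above every BMMC array by more than the spread within either group. The difference was 1.11 ± 0.086 (SE, adjusted p = 2.11e-06), a 2.16-fold rise, and its second probe gave 1.16. The difference was 1.04 within slide 1 and 1.18 within slide 2. Progenitor arrays averaged 12.50 ± 0.16 (SD) and IgE_BMMC arrays 13.75 ± 0.14 (SD), and the latter overlapped the MMC arrays. The call was lost when the 75th percentile of all probes set the scale (0.74, adjusted p = 0.0642) and under quantile normalization (0.053, adjusted p = 0.623). The probe of miR-21 ranks 1 in mean signal in both groups, and quantile normalization gives all arrays the same top values. The star arm miR-21*, the other strand of the hairpin, sat at the floor on 7 of the 8 arrays and gave 0.079 ± 0.22 (SE, adjusted p = 0.963), which bounds little.

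MiR-452 gave the largest rise. Its hairpin lies within the span of Gabre on chromosome X (chrX:72262271-72262292, minus strand), 1111 bases from that of miR-224. MiR-452 read 4.45, 4.98, 4.66 and 4.85 on the BMMC arrays and 5.96, 5.98, 5.67 and 6.13 on the MMC arrays. The groups were apart, and the difference was 1.20 ± 0.24 (SE, adjusted p = 0.00273), a 2.29-fold rise. All 4 MMC arrays also exceeded all 12 other arrays of the study, with progenitors at 4.17 ± 0.60 (SD) and IgE_BMMC at 3.93 ± 0.18 (SD). MiR-224 was well above background on no BMMC or MMC array and was not tested.

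The largest falls were of miR-193b and miR-365, whose hairpins lie 4238 bases apart on chromosome 16 within the span of 2 long noncoding RNA genes (miR-193b at chr16:13449570-13449591, plus strand). In mouse blood stem cells miR-193b is known to be induced by STAT5 and to target the SCF receptor c-Kit. For miR-193b the BMMC levels were 5.16, 5.72, 5.88 and 6.10 and the MMC levels 4.02, 4.26, 4.18 and 4.68. No MMC array reached the lowest BMMC array. The difference was -1.43 ± 0.23 (SE, adjusted p = 5.92e-04), and all 4 MMC arrays lay below the 12 other arrays, with progenitors at 7.46 ± 0.31 (SD). With normexp background correction the difference of miR-193b was -0.21 (adjusted p = 0.137), so its call was lost there, while miR-223 (-0.63) and miR-365 (-0.46) stayed called. The BMMC arrays gave 7.47, 7.15, 7.23 and 7.07 for miR-365 and the MMC arrays 6.50, 6.17, 6.56 and 6.23. The groups again did not overlap, with a difference of -0.86 ± 0.14 (SE, adjusted p = 6.25e-04). The mature miR-365 has a further locus on chromosome 11 (chr11:79726467-79726488), 14365 bases past the hairpin of miR-193, and the array cannot tell the loci apart.

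MiR-193 shares the seed of miR-193b and stands beside that further copy. For miR-193 the BMMC levels were 5.77, 4.97, 4.96 and 4.45 and the MMC levels 5.82, 4.92, 5.91 and 4.12. Its groups overlapped widely, and its difference was 0.15 ± 0.47 (SE, adjusted p = 0.978), an interval from -0.87 to 1.18 that holds large changes either way. Set against miR-193 on the same array, which removes the scale factor, miR-193b went from a mean of 0.68 over the 4 BMMC arrays (range -0.61 to 1.65) to -0.91 over the 4 MMC arrays (range -1.80 to 0.56). Probes differ in brightness, so such a gap has a meaning only as it shifts between groups. Those ranges overlap through BMMC replicate 1, whose miR-193 was high (5.77), and MMC replicate 4, whose miR-193 was low (4.12). The pair was chosen with the levels in view, so no p is given for it.

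MiR-223 is the miRNA of the myeloid lineage and restrains granulocyte production in the mouse. It lies on chromosome X (chrX:96242884-96242905). The 4 BMMC arrays read 8.17, 7.93, 8.57 and 8.27 log2 units and the 4 MMC arrays 7.40, 7.35, 7.64 and 7.17. The MMC arrays were all lower, with a difference of -0.85 ± 0.20 (SE, adjusted p = 0.00679), and the level stood at 12.35 ± 0.34 (SD) in progenitors and 8.50 ± 0.33 (SD) in IgE_BMMC. In the authors' table the call was lost (-0.98, adjusted p = 0.088). In bulk RNA, fewer cells that carry a miRNA and less of it per cell cannot be told apart, which touches this miRNA and all others here.

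MiR-212 and miR-132 come from 1 cluster on chromosome 11, with hairpins 203 bases apart, and are known to respond to the transcription factor CREB. MiR-212 read 6.25, 6.29, 6.47 and 6.78 on the BMMC arrays and 5.91, 6.09, 5.79 and 6.04 on the MMC arrays. The groups did not overlap, and miR-212 fell by 0.49 ± 0.15 (SE, adjusted p = 0.0276). For miR-132 the BMMC levels were 4.00, 3.72, 3.87 and 4.45 and the MMC levels 3.72, 3.79, 3.56 and 4.03. The groups overlapped, and miR-132 gave -0.24 ± 0.13 (SE, adjusted p = 0.234), with a 95% interval from -0.53 to 0.05. The call on miR-212 was lost in 5 of 10 other settings and in 4 of 16 fits without 1 array.

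The 4 smaller falls were of miR-93, miR-128, miR-425 and miR-16. MiR-93, of the miR-106b cluster within Mcm7 and known to act on cell cycle inhibitors, went from 7.10 to 7.79 on the BMMC arrays to 6.82 to 7.17 on the MMC arrays, and is the only called miRNA whose groups overlapped (-0.46, SE 0.12, adjusted p = 0.0165). MiR-16, which restrains cyclins, changed little but evenly. The BMMC arrays gave 10.96, 10.91, 11.00 and 11.09 for miR-16 and the MMC arrays 10.78, 10.75, 10.81 and 10.78. Those MMC arrays lay below all 12 other arrays and differed by -0.21 ± 0.044 (SE, adjusted p = 0.00366) from BMMC, and by -0.33 without progenitor replicate 4. MiR-425 differed by -0.26 ± 0.076 (SE, adjusted p = 0.0273). MiR-128, best known from neurons, was dim, from 4.13 to 4.28 on the BMMC and 3.74 to 3.81 on the MMC arrays, and its call (-0.44, SE 0.14, adjusted p = 0.0461) was kept in 4 of the 16 fits without 1 array. With normexp correction the values of miR-425 (0.029) and miR-128 (0.52) turned positive.

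The miR-23/27/24 clusters, named in studies of TGF-beta responses and cut from hairpins on chromosomes 8 and 13, had 7 tested members, all above 0, of which 4 rose and 3 were not called (median 0.32, against 0.015 over all 206). Across all 206 tested miRNAs 17% rose. For miR-24 the BMMC levels were 10.28, 10.21, 10.29 and 10.38 and the MMC levels 10.65, 10.63, 10.65 and 10.50. Every MMC array was above the BMMC arrays, a difference of 0.32 ± 0.058 (SE, adjusted p = 0.00132). The star arms moved further. For miR-24-2* the BMMC levels were 6.36, 6.50, 6.62 and 6.54 and the MMC levels 7.34, 7.33, 7.39 and 7.24. This arm, of the chromosome 8 hairpin (chr8:84208839-84208860), differed by 0.82 ± 0.18 (SE, adjusted p = 0.00435), and miR-24-1*, of the chromosome 13 hairpin within Aopep (chr13:63301213-63301235), by 0.75 ± 0.096 (SE, adjusted p = 1.16e-04). Mature miR-24 is the same from either hairpin, and the star arms begin alike and differ only toward their ends. How far the probe of one star arm also takes up the other was not tested, so these members may not be separate readings. MiR-23b rose by 0.37 ± 0.081 (SE, adjusted p = 0.00435). MiR-23a (0.31, SE 0.13, adjusted p = 0.0978), miR-27a (0.23, SE 0.077, adjusted p = 0.0524) and miR-27b (0.098, SE 0.075, adjusted p = 0.408) were not called. Relative to the median of all tested miRNAs, the median of the 7 was 0.30 as reported, 0.17 with the 75th percentile of all probes, 0.28 under quantile normalization, 0.27 in the authors' table and -0.28 with normexp. Without progenitor replicate 4 the difference of miR-24 was 0.20.

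Comparing arms within an array does not depend on the scale factor. The signal of miR-24-2* stood at -3.79 ± 0.12 log2 units relative to miR-24 in BMMC and -3.28 ± 0.028 in MMC (SD, n = 4 each), so the gap shifted by 0.50, and the groups did not overlap. For miR-24-1* the shift was 0.43, again without overlap. For the miR-29a hairpin, the star arm rose by 0.60 ± 0.077 (SE, adjusted p = 1.16e-04) while miR-29a itself, a repressor of collagen messages, gave -0.17 ± 0.088 (SE, adjusted p = 0.18), a shift of 0.78 between the arms. In the miR-17 hairpin, miR-17* rose by 0.51 ± 0.15 (SE, adjusted p = 0.0274) and miR-17 gave -0.25 ± 0.19 (SE, adjusted p = 0.39), a shift of 0.76. In the miR-140 hairpin, known from cartilage, it was the unstarred arm that rose. Levels of miR-140 were 7.53, 7.42, 7.50 and 7.46 on the BMMC arrays and 8.10, 8.04, 8.11 and 8.05 on the MMC arrays. The groups were well apart, at 0.60 ± 0.083 (SE, adjusted p = 1.79e-04), with miR-140* at -0.078 ± 0.11 (SE, adjusted p = 0.771), a shift of -0.68 of the star arm relative to the other. The BMMC and MMC ranges of the gap did not overlap in any of these 5 pairs. These pairs were picked with the differences in view and carry no p. The gap was not compared in the other pairs with both arms tested. Among single miRNAs, 35% of all 206 had groups that did not overlap. Both arms of 26 such pairs were tested, the star or second arm rose in 5 of them by limma and fell in 0 (6 and 1 at an unadjusted p under 0.05), and both arms were called in 2, those of miR-24. The floor limits these counts. MiR-146b*, miR-181a-1*, miR-186*, miR-28*, miR-29b*, miR-7a* and miR-872* sat at the floor on all 8 arrays, so they could not be called. MiR-106b*, miR-130b*, miR-21*, miR-30c-1* and miR-744* sat there on 6 or 7, which left little room for a fall. Among the first arms 6 rose (miR-21, miR-22, miR-24, miR-28, miR-140 and miR-142-3p), and 17% of all 206 tested miRNAs rose.

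Other rises were of miRNAs with known roles in blood cells or metabolism. MiR-142-3p, a miRNA of the whole blood lineage, is cut from a hairpin on chromosome 11 (chr11:87756903-87756925). On the BMMC arrays it read 12.59, 12.55, 12.74 and 12.80, and on the MMC arrays 13.21, 13.27, 13.11 and 13.18. It rose by 0.52 ± 0.077 (SE, adjusted p = 3.11e-04), and the gap of miR-21 over it went from 0.073 ± 0.16 to 0.66 ± 0.074 (SD, n = 4 each) without overlap. Under quantile normalization miR-142-3p turned to -0.24. MiR-28, from a hairpin within Lpp (chr16:24827868-24827889), had the second smallest adjusted p. The BMMC arrays gave 4.14, 3.97, 4.09 and 4.11 for miR-28 and the MMC arrays 4.78, 4.79, 4.89 and 4.59. All MMC arrays were higher, by 0.69 ± 0.059 (SE, adjusted p = 3.56e-06), and the progenitor arrays were at the floor. Values at the floor have no spread, which makes this SE and p smaller.

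MiR-378, whose hairpin is known to lie within the gene of a coactivator of mitochondrial metabolism, was the most even of these. For miR-378 the BMMC levels were 6.60, 6.70, 6.71 and 6.73 and the MMC levels 7.38, 7.32, 7.35 and 7.36. The difference was 0.67 ± 0.086 (SE, adjusted p = 1.16e-04), with progenitors higher still at 7.74 ± 0.23 (SD). MiR-22 rose by 0.47 ± 0.075 (SE, adjusted p = 5.93e-04), and miR-33, within the sterol regulator gene Srebf2 and known to lower cholesterol export, by 0.57 ± 0.17 (SE, adjusted p = 0.0317). MiR-151-5p (0.41, SE 0.089, adjusted p = 0.00435), miR-301b (0.63, SE 0.18, adjusted p = 0.0199) and miR-674* (0.66, SE 0.21, adjusted p = 0.0346) also rose. The groups did not overlap for any of these, nor for any of the 35 rises.

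**Figure D2:**
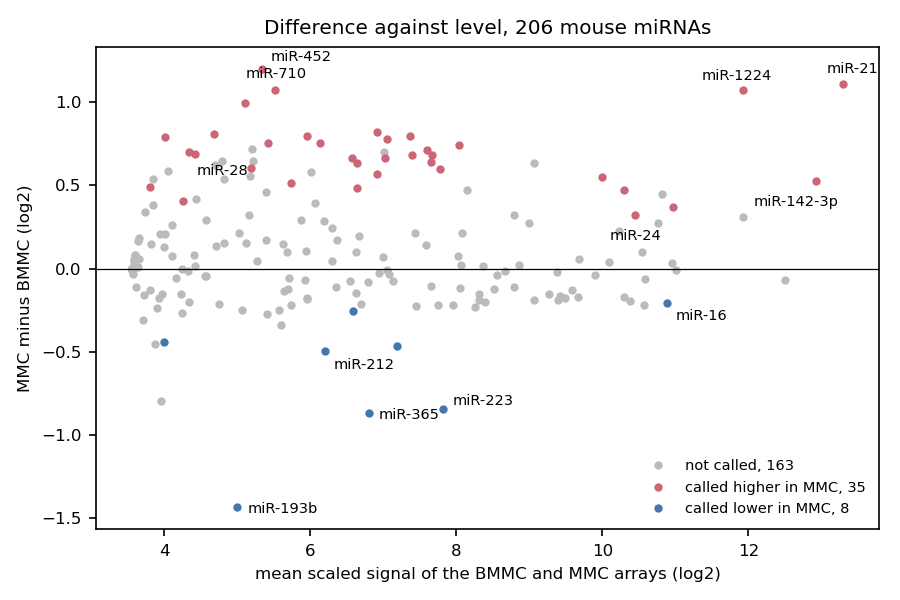
MMC minus BMMC (log2) against the mean scaled signal (log2) of the 206 tested miRNAs, with 35 called higher in red, 8 called lower in blue and 163 not called in grey. Calls occur from dim to bright miRNAs, and miR-21 and miR-193b stand at the top right and the bottom.

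Calls, 17% of all 206 tested miRNAs as rises and 3.88% as falls, were spread over the range of signal. Of the 68 dimmest of the tested miRNAs 5 rose and 1 fell, of the 69 in the middle 14 rose and 4 fell, and of the 69 brightest 16 rose and 3 fell. A further group of rises holds miRNAs rich in G and C. Of the 27 tested miRNAs with over 60% G and C, 10 rose by limma (37%, median difference 0.42) and 0 fell, with 13 and 1 at an unadjusted p under 0.05, while of the 32 with 40% or less, 3 rose and 1 fell (median -0.0096). Between 40% and 50%, 10 of 89 rose and 4 fell, and between 50% and 60%, 6 of 27 rose and 3 fell. Over the 175 miRNAs with a sequence, Spearman's rho between G and C content and the difference was 0.35 and Pearson's r 0.36. These are descriptions across miRNAs that share arrays, probes and labelling, and the part of base composition in the result was not tested.

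**Figure D3:**
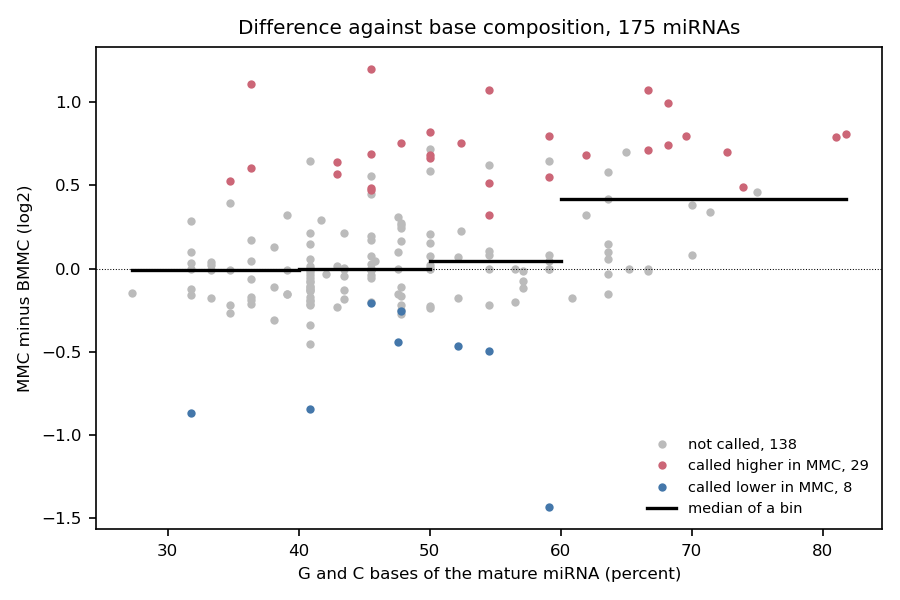
MMC minus BMMC (log2) against the share of G and C bases (percent) of 175 miRNAs, with called rises in red, called falls in blue and bin medians as black lines. The median lies near 0 up to 60% and at 0.42 above.

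The 10 GC-rich rises were miR-1224, miR-370, miR-762, miR-671-5p, miR-718, miR-139-3p, miR-680, miR-770-3p, miR-188-5p and miR-339-3p. MiR-1224, spliced out as an intron of Vwa5b2 in a class called mirtrons (chr16:20604452-20604472), is among them. The 4 BMMC arrays read 11.16, 11.71, 11.27 and 11.42 log2 units and the 4 MMC arrays 12.36, 12.27, 12.22 and 12.98. The groups did not overlap and the difference was 1.07 ± 0.22 (SE, adjusted p = 0.0028), with progenitors as high as MMC at 12.47 ± 0.47 (SD). Under quantile normalization it was 0.53 (adjusted p = 0.0981). MiR-370, of the imprinted Dlk1-Dio3 region within Rian (chr12:109618305-109618326), read 4.38 to 4.84 in BMMC and 5.35 to 5.92 in MMC (0.99, SE 0.18, adjusted p = 0.0012). MiR-718, within the span of Irak1, was dim. Its level was 3.56, 3.81, 3.56 and 3.56 on the BMMC arrays and 4.50, 4.20, 4.23 and 4.70 on the MMC arrays. The MMC arrays were all higher (0.79, SE 0.093, adjusted p = 8.26e-05). On 2 of the 4 BMMC arrays it was at the floor. Its difference was 0.33 as the mean of its probes and 0.45 in the authors' table, where the call was lost. It was 0.39 without BMMC replicate 1 or 3, and 0.43, 0.47, 0.46 and 0.30 without MMC replicate 1, 2, 3 or 4, each still called. MiR-339-3p was at the floor on all 4 BMMC arrays and between 3.79 and 4.23 in MMC, so its difference of 0.49 ± 0.066 (SE, adjusted p = 1.43e-04) understates the rise. All progenitor and IgE_BMMC arrays were at the floor for miR-339-3p and miR-718. Values set to the floor have no spread and enter the shared estimate of spread, so the SE and p of both miRNAs are too small.

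Among these 10, BMMC replicate 2 was the highest BMMC array in 9 and MMC replicate 4 the highest MMC array in 9. Among the 19 other rises with a sequence the same arrays were highest in 7 and 7. The median difference of the 27 GC-rich miRNAs was 0.44 without BMMC replicate 2 and 0.42 without MMC replicate 4, and ran from 0.36 to 0.52 when any 1 of the 8 arrays was left out.

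Rises with 60% or less G and C outside the groups already described were of miR-710, miR-125a-3p, miR-697, miR-202-3p, miR-721, miR-135a* and miR-290-5p. Levels of miR-710 were 5.01, 5.16, 4.77 and 4.95 on the BMMC arrays and 6.37, 5.86, 5.87 and 6.09 on the MMC arrays. MiR-710 (chr8:64514401-64514422) differed by 1.07 ± 0.18 (SE, adjusted p = 6.46e-04) without overlap, and was 1 of 2 miRNAs, with miR-365, that stayed called in all 10 other settings. As the mean of its probes miR-710 differed by 0.53. The other 6 and miR-483, from within the growth factor gene Igf2, differed by 0.49 to 0.80. MiR-290-5p belongs to the main miRNA cluster of mouse embryonic stem cells, and miR-202-3p is known from the gonads.

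Of the 206 tested miRNAs, 14 (6.8%) were higher on every MMC array than on all 12 other arrays. They comprise 11 of the 35 rises, namely miR-452, miR-125a-3p, miR-762, miR-718, miR-139-3p, miR-680, miR-770-3p, miR-721, miR-135a*, miR-339-3p and miR-290-5p, and 3 that were not called, miR-877 (0.70, SE 0.26, adjusted p = 0.0723), miR-874 (0.47, SE 0.16, adjusted p = 0.0518) and miR-705 (0.46, SE 0.17, adjusted p = 0.0749). Lower on every MMC array than on all others were 6 (2.91%): the called miR-193b, miR-365, miR-223, miR-212 and miR-16, and miR-150. MiR-150, a lymphocyte miRNA, read from 4.01 to 4.70 on the BMMC arrays and sat at the floor on all 4 MMC arrays (-0.79, SE 0.30, adjusted p = 0.0724). That difference is limited by the floor, and no progenitor array read miR-150 well above background. MiR-877, miR-874, miR-705 and miR-150 are named because of their values. The calls that concern miR-21, miR-24, miR-22, miR-23b and miR-28 are not in this set: their IgE_BMMC levels were 13.75 ± 0.14 (SD), 10.78 ± 0.079 (SD), 10.79 ± 0.089 (SD), 11.30 ± 0.070 (SD) and 4.48 ± 0.083 (SD) in that order. The IgE_BMMC mean exceeded the MMC mean for miR-24-1* (7.04, against 6.51), miR-24-2* (7.75, 7.32), miR-29a* (5.62, 5.49), miR-140 (8.19, 8.08) and miR-142-3p (13.27, 13.19). Of the 35 rises, 17 had an IgE_BMMC mean above the BMMC mean, and 18 had an MMC mean above all other group means.

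Lists of miRNAs that other studies tie to TGF-beta, to STAT proteins and to mast cell function were counted next, against 17% of all 206 tested miRNAs that rose and 3.88% that fell. Of 12 tested miRNAs on the list induced by TGF-beta in other cells, 2 rose by limma, miR-21 and miR-24, and 0 fell, with 5 and 0 at an unadjusted p under 0.05, 11 above 0 and a median of 0.28 against 0.015 over all 206. Its other members included miR-155 and miR-27a, and 3 more were well above background on no array, the fibroblast miRNAs miR-143, miR-145 and miR-199a-5p. Relative to all tested miRNAs the median was 0.26 as reported, 0.18 with the 75th percentile of all probes, 0.14 under quantile normalization, 0.25 in the authors' table and -0.061 with normexp. Of 10 tested miRNAs repressed by TGF-beta elsewhere, from the families of miR-29, of miR-30 and of miR-200, 0 were called by limma, with 1 at an unadjusted p under 0.05 and differences from -0.19 to 0.21 (median -0.0037). Its tested miR-200 members, miR-141 and miR-200c, sat at the floor on all 8 arrays, so their differences of 0 were set by the floor. Both were above background on 4 BMMC arrays and 0 MMC arrays, so the miR-200 family cannot be read as unchanged.

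The list of miRNAs that respond to STAT3 or STAT5, which IL-9 activates, had 14 tested members, of which miR-21 rose and miR-193b, miR-365 and miR-223 fell, with 10 members below 0 and a median of -0.17. The rest, among them the miR-17-92 members, were not called. The list of miRNAs with a reported function in mast cells had 12 tested members: miR-142-3p and miR-24 rose, miR-223 and miR-212 fell, and 8 were not called (median 0.056). Of all 206 tested miRNAs, 17% rose and 3.88% fell. The BMMC arrays gave 6.14, 5.78, 5.74 and 5.80 for miR-155 and the MMC arrays 6.39, 6.01, 6.46 and 6.19. MiR-155, which limits mast cell activation in the mouse, had MMC arrays with 1 below the highest BMMC array, at 0.40 ± 0.17 (SE, adjusted p = 0.117). MiR-221, which acts on the mast cell cytoskeleton and c-Kit, gave 0.27 ± 0.11 (SE, adjusted p = 0.0848), and miR-222 of the same cluster 0.071 ± 0.15 (SE, adjusted p = 0.928). MiR-146a, a brake on NF-kappaB, read 3.56 to 4.93 on the BMMC arrays and 3.56 to 3.90 on the MMC arrays and gave -0.45 ± 0.30 (SE, adjusted p = 0.334).

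**Figure D4:**
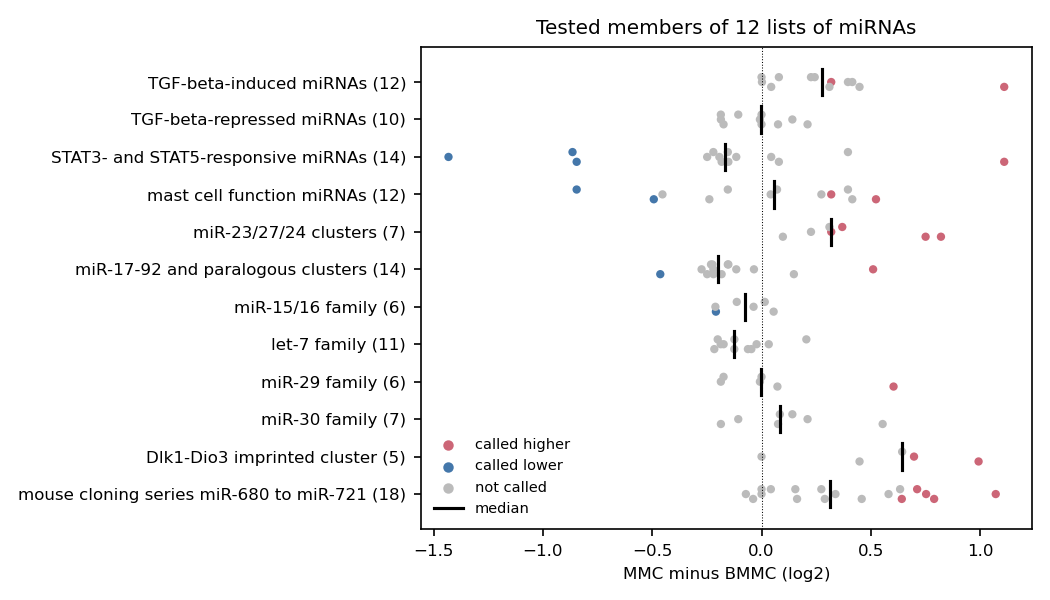
MMC minus BMMC (log2) of the tested members of 12 lists of miRNAs, the number of members in brackets. Points are miRNAs, red for called rises, blue for called falls and grey for the rest, and black bars are medians, 0.32 for the miR-23/27/24 clusters and -0.20 for the miR-17-92 clusters.

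Families and clusters are again set against the 17% of all 206 tested miRNAs that rose and the 3.88% that fell. Among families of proliferation, the miR-17-92 and related clusters had 14 tested members, of which miR-17* rose, miR-93 fell and 12 lay below 0 (median -0.20). The 6 members with the seed AAAGUGC ran from -0.46 to -0.15 and only miR-93 was called. Of 11 let-7 family members, 0 were called by limma, 0 had an unadjusted p under 0.05, and 9 lay below 0 (median -0.12). Of 6 in the miR-15/16 family, miR-16 fell. The miR-30 family had 7 tested and 0 called by limma, with 2 above 0 at an unadjusted p under 0.05 (median 0.084). Of the 6 in the miR-29 family miR-29a* rose, of 4 inflammatory miRNAs miR-21 rose, and of 2 each in the miR-191 and miR-125a clusters miR-425 fell and miR-125a-3p rose. Of 2 in the miR-34 family 0 were called by limma and 0 had an unadjusted p under 0.05. Of 5 tested members of the Dlk1-Dio3 cluster, 55 of whose miRNAs are on the array, miR-370 and miR-770-3p rose (median 0.64). The miRNAs with names from miR-680 to miR-721, found by cloning in the mouse and of uncertain standing in part (miR-720 is known to be a tRNA fragment), had 18 tested members, 5 rises by limma, 0 falls (7 and 0 at an unadjusted p under 0.05) and a median of 0.31. That median was positive in all 5 scalings, from 0.11 to 0.72, while the median of all tested miRNAs moved from -0.22 to 0.57.

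Lists of markers of other cells differed in level. Of the stromal list, miR-143, miR-145, miR-199a-5p, miR-214 and 3 others of 9 on the array were well above background on no BMMC or MMC array, and its summed scaled signal was 23.7 to 31.5 in BMMC and 21.8 to 29.2 in MMC. The red cell miRNAs miR-451 and miR-144 were above background on none of the 8 arrays, as were miR-126-3p of endothelium and stem cells and 6 of 10 epithelial miRNAs, whose list summed to 29.8 to 38.3 in BMMC and 28.0 to 35.5 in MMC. Of 11 muscle, liver and neuron miRNAs 9 were above background on none of the 8, among them miR-1, miR-122 and miR-124. The 6 lymphoid miRNAs were all tested and miR-128 fell, where 3.88% of all 206 tested miRNAs fell. The lymphoid list summed to 198.2 to 238.3 in BMMC and 206.0 to 216.2 in MMC. The myeloid list (miR-223, miR-142-3p and 1 more) summed to 7242 to 8628 in BMMC and 10146 to 11261 in MMC. Most of that sum was miR-142-3p, with a mean of 6531 in BMMC and 9372 in MMC, while miR-223 went from 304.9 to 168.7. The median difference of the list was 0.042. No protein or message that marks mucosal mast cells was measured, so the label MMC could not be checked on these arrays.

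MMC arrays showed fewer miRNAs and less signal. On the BMMC arrays 210.8 ± 10.4 mouse miRNAs stood well above background and on the MMC arrays 178.5 ± 9.26 (SD, n = 4 each), a difference of -32.3 and an exact permutation test (two-sided) gave p = 0.0286, which is the lower limit for 70 arrangements. The counts were 212, 224, 199 and 208 in BMMC and 191, 172, 171 and 180 in MMC, without overlap. Without BMMC replicate 2 the difference was -27.8 (exact permutation p = 0.0571). Before scaling, the log2 scale factor averaged 1.26 in BMMC and 0.25 in MMC, a gap of -1.01, so without scaling every rise of less than that would have been a fall. The bright corner spots, controls that mark the grid, averaged an unscaled signal of 1283 ± 166 in BMMC and 773.5 ± 96.6 in MMC (SD, n = 4 each), so these controls were dimmer in MMC too. Whether labelling, scanning or the amount of small RNA set the gap was not tested.

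Of the miRNAs above background on 3 or 4 BMMC arrays, 15 were above it on no MMC array, and 0 were so the other way round. All 15 sat at the floor on the 8 arrays after scaling, so no fold could be given for any of them, and none counts as a fall. Of the 206 tested, 167 stood above background on all 8 arrays, among them all 43 that were called. The MMC and BMMC profiles were close: Pearson's r across the 206 miRNAs was 0.975 to 0.989 between arrays of the 2 groups, against 0.992 to 0.997 within BMMC and 0.989 to 0.995 within MMC.

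**Figure D5:**
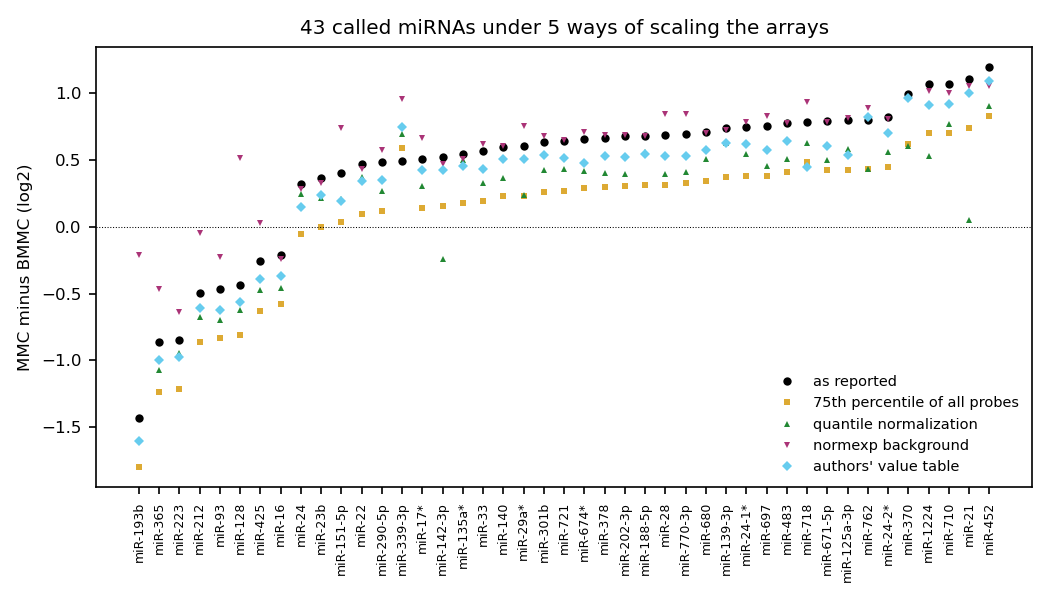
MMC minus BMMC (log2) of the 43 called miRNAs as reported (black) and under 4 other ways of scaling or correcting the arrays. MiR-24 and miR-23b reach 0 or below with the 75th percentile of all probes, miR-21 drops to 0.053 and miR-142-3p to -0.24 under quantile normalization, and miR-193b moves to -0.21 and miR-128 to 0.52 with normexp.

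The direction held more widely than the calls. Of the 43 called miRNAs, 38 kept their sign in all 10 other settings, 32 of the rises and 6 of the falls, and 33 stayed called in all 16 fits without 1 array. Changing the filter or adding a slide or replicate block leaves each difference as it was, so those settings could not turn a sign. Of the other probes measured for called miRNAs, 64 of 64 gave the same sign. They read the same RNA on the same arrays with the same scale factors, so this is no independent support. Of all 206 tested miRNAs, 72 (35%) had groups that did not overlap, 53 higher in MMC (25.7%) and 19 lower (9.22%), and 42 of the 43 called ones were among them.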

How the data were processed

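Per the file headers, the authors read the arrays with Agilent Feature Extraction, and the deposited spot signals are background-subtracted intensity values on a linear scale with no scaling between arrays. The authors' value table holds log2 values; its MMC minus BMMC differences equal those of the deposited total signal per miRNA, raised to at least 1, plus a constant of 0.915 to within 6.87e-07, so its scale and direction are settled, its entries are centred over the arrays by an unstated rule, and its medians run from -0.98 to 0.82. It served as an alternative.

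Spots of a probe were averaged without outlier spots. Each array was divided by the 75th percentile of the 205 probes well above background on all 16 arrays, signals under 11.8 (3.56 in log2) were set to that floor, and each miRNA was read from its brightest probe. The floor is the median, over the 16 arrays, of the lowest scaled signal well above background. The limma fit (version 3.58.1, R 4.3.3) had 1 coefficient per group, all 16 arrays, 12 residual and 0.873 prior degrees of freedom; 216 mouse miRNAs were fitted and 206 tested, with p-values adjusted over these by the Benjamini-Hochberg method and a call at 0.05. It was tested on simulated data. No spot was saturated. With 4 arrays a group, their number limits the precision. Labels state 100 ng of total RNA per array.

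The 2 groups, the 25 lists of miRNAs and the naming rule were chosen with earlier results of these data known. The rule takes all called falls, the 15 largest rises, 16 fixed miRNAs, up to 3 members of lowest p per list, the 5 with the highest MMC signal, miRNAs seen in 1 group only and other arms of called miRNAs; the text names part of these. Where sequences or gene spans are given, they come from RefSeq, GRCm38.p6. Alternatives covered scaling, background, source, probes, filter, samples fitted, slide and replicate blocks, and leaving out each array.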

Additional observations from a re-analysis of the deposited data

Results flagged for a closer look

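Within groups of 4 arrays, 1 array stood far from the other 3 in 8 of the groups tested, 126 in all; chance flags about 1 in 20. In BMMC, replicate 2 was high for miR-718 (3.81), miR-680 (7.51), miR-762 (4.53) and miR-125a-3p (5.94), the next highest arrays reading 3.56, 7.17, 4.22 and 5.47. Those are 4 of the called rises, and in each that BMMC array still lay below every MMC array. Replicate 1 was high for miR-155 (6.14, next 5.80), and for miR-140* replicate 3 was low (7.13, next 7.19). In MMC, replicate 3 was high for miR-146a (3.90) and replicate 2 for miR-21* (3.87), with the other 3 arrays at the floor of 3.56 in both cases.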

How the results depend on the processing

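Against 35 miRNAs higher and 8 lower in MMC, with a median difference of 0.015, the 75th percentile of all probes gave 8 and 14 (median -0.22), quantile normalization 20 and 35 (-0.055), normexp background correction 147 and 5 (0.57), the values tabled by the authors 6 and 3 (-0.077), no filter on dim miRNAs 4 lower, and a fit of the 8 BMMC and MMC arrays alone 57 and 15. Rises made up 81.4% of the calls, against 36.4%, 36.4%, 96.7% and 66.7% in the first 4 of these. Normexp adds an offset of 50 to every spot before scaling, which weighs most on dim miRNAs. The median of the epithelial list, 0 as reported, was 0.79 with normexp. How far the offset sets the normexp counts and signs was not tested. Leaving out 1 array gave 28 to 45 higher and 5 to 26 lower; the lower count was 26 without progenitor replicate 4 and 5 without BMMC replicate 3, BMMC replicate 4 or MMC replicate 1. The fall in miRNAs above background ran from -36.4 to -27.8 and lost its call without BMMC replicate 2. The cause was not tested.

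Signs turned for 5 called miRNAs: miR-24 (-0.051) and miR-23b (-0.00015) with the 75th percentile of all probes, miR-142-3p (-0.24) under quantile normalization, and miR-425 (0.029) and miR-128 (0.52) with normexp. Among uncalled miRNAs that are named, the 75th percentile of all probes turned miR-221 (-0.096), miR-222 (-0.30), miR-23a (-0.059), miR-27a (-0.14), miR-27b (-0.27) and miR-193 (-0.22), quantile normalization miR-222 (-0.20), miR-23a (-0.27), miR-27b (-0.0018) and miR-193 (-0.10), the authors' table miR-222 (-0.028) and miR-27b (-0.018), and normexp miR-132 (0.59), miR-146a (0.51), miR-150 (0.34), miR-17 (0.24) and miR-140* (0.092). Without 1 array, miR-222 ran from -0.046 to 0.19, miR-27b from -0.020 to 0.15 and miR-193 from -0.084 to 0.51. MiR-365 relative to miR-193b, at 0.57, became -0.25 with normexp; the comparisons within an array were added after the data were seen.

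Whether the replicate numbers pair the samples could not be settled. Same-numbered BMMC and MMC arrays correlated at 0.23, -0.41, 0.15 and 0.18 in their deviations from the group means. Differently numbered ones ran from -0.505 to 0.458. With the replicate block 35 were higher and 6 lower, and 40 of the 43 calls were kept; with the slide block it was 36 and 7. The floor limits the dim members: 21 of the 206 tested miRNAs sat at it on all 8 arrays, though tested for being clearly above background. The floor of 11.8 exceeds the lowest scaled signal well above background on each BMMC array (3.03 to 4.60) and each MMC array (7.48 to 11.2).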
